A study of Mus musculus with 7 samples.

Results

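The mRNAs of 3 scaffold protein families of the postsynaptic density, Shank (Shank1 to Shank3), Dlgap (Dlgap1 to Dlgap4) and Homer (Homer1 to Homer3), were followed in mouse hippocampal synaptoneurosomes after AM6545 or vehicle. The members were chosen by gene name, by a rule that uses no measured values, but with earlier results of these data known. They are 10 of the 22248 genes in the deposited table. The deposited transcript table holds 99 of their transcripts among 102392. All libraries came from female wild-type C57Bl/6J mice, with 4 libraries in the AM6545 group (replicates B, D, E and F) and 3 in the Vehicle group (replicates B, D and E). AM6545 blocks the CB1 cannabinoid receptor and crosses poorly into the brain, and the series title describes its administration as sub-chronic. The age of the mice, the dose, the length of treatment and how many mice went into each library are not given in the sources used here. Synaptoneurosomes are a tissue fraction in which presynaptic endings have resealed together with the postsynaptic membrane they contact. Nothing in the labels says that the libraries come from separate animals, so p-values measure the spread between these libraries, which may be technical.

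The 3 families form consecutive layers of the scaffold beneath excitatory synapses. Dlgap proteins (also called GKAP or SAPAP) bind the guanylate kinase domain of PSD-95, the product of Dlg4, and their C-terminal end binds the PDZ domain of Shank proteins. Shank proteins in turn bind Homer, cortactin and other actin regulators. Long Homer proteins form tetramers through a C-terminal coiled coil and link Shank to metabotropic glutamate receptors and to the inositol trisphosphate receptors of calcium stores. Short Homer1 proteins, such as Homer1a, keep the ligand-binding EVH1 domain but lack the coiled coil, and neuronal activity induces their mRNA. Several of these mRNAs, those of Shank and Dlgap proteins among them, are known to be present in dendrites.

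The short and long Homer1 messages are told apart by where their coding sequences part, so that stretch is shown first. In the GENCODE M21 annotation (build GRCm38), Homer1-203 encodes a long form of 366 codons and Homer1-204 a short form of 186 codons. Their first 527 coding bases are the same. The short form then runs on past the splice site for 31 bases of its own (chr13:93356080-93356110, + strand) to its stop codon, while the long form continues in a later exon. Below, the last 30 shared bases are in lower case and the bases after the parting point are in capitals, 5′ to 3′, from coding base 498 on.
Homer1-203: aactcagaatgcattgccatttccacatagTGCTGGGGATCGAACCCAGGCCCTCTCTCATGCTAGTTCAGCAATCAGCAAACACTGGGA
Homer1-204: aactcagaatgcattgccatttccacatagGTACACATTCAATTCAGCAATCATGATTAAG

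The annotated Homer1 transcripts also start at different places. RefSeq's promoter table for GRCm38.p6, which held 7 of the 10 genes, lists 2 Homer1 starts, and both are shown because Homer1-207 and Homer1-202, counted below, begin at them. The first window (chr13:93303507-93303756, + strand) is the 250 bases before the start of Homer1-207, a short form. The second (chr13:93307784-93308033, + strand) is the 250 bases before the start of Homer1-202, a long form with its own first exon. Capitals mark TGACGT, a core of the cAMP response element, which was searched on both strands (TGACGT and ACGTCA), with overlapping matches counted separately.
Homer1 first window: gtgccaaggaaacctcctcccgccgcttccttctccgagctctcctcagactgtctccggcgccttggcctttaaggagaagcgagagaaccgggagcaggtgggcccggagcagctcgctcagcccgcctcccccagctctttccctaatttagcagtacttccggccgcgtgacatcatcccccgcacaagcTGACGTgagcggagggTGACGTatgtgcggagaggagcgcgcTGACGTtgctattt
Homer1 second window: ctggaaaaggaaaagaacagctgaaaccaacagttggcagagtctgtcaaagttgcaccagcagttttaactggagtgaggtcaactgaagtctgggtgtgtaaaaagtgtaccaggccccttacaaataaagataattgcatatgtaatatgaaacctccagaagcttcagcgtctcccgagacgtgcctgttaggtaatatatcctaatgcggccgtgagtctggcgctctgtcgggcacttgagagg
The first window holds 3 matches and the second 0. Of the 32851 promoter windows of this length in the table, 6.47% hold at least 1 match and 0.152% hold 3 or more. A match is a description of the letters and does not show a bound site.

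Library totals ran from 19174649 to 25894733 estimated counts. The neuronal markers that a synaptic preparation should hold were abundant in both groups, with Snap25 at 3721 ± 181 CPM (SD, n = 4) after AM6545 and 3209 ± 63.9 (SD, n = 3) after vehicle. CPM are TMM-scaled counts relative to library size (edgeR's cpm). Glial mRNA was present too: the summed CPM of 10 oligodendrocyte lineage markers ran from 17200 to 20400 after AM6545 and from 16900 to 23200 after vehicle, against 9860 to 10300 and 9450 to 9580 for 10 neuron markers. The summed CPM of 10 microglia markers ran from 1010 to 1100 and from 1050 to 1340, that of 10 astrocyte markers from 4240 to 5260 and from 4410 to 5690, that of 10 endothelial and mural markers from 93.6 to 134 and from 96.5 to 130.0, and that of 8 choroid plexus markers from 432 to 2050 and from 1620 to 2870. No marker in these lists was at 0 counts in all libraries. At an unadjusted p under 0.05 in edgeR's test, 6 of the 10 microglia markers, 2 of the 10 oligodendrocyte lineage markers and 1 of the 10 astrocyte markers were lower after AM6545, and no marker was higher, where 8.7% of all genes tested were lower and 5.86% higher. All 8 choroid plexus markers had a log2 fold change below 0, with a median of -0.29, and 0 of them passed that p. The part of these cell types in the members' differences was not tested. In bulk RNA of this kind, fewer cells or terminals of a type and less RNA in each cannot be told apart.

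Vehicle replicate B stood apart from the other libraries. Mitochondrially encoded genes took 9.83% of its counts, against 5.07% to 6.66% in the other 6. The slope of log2 level on GC content also separated the groups, at -0.125 to -0.0282 per 10 points of GC in the AM6545 libraries and 0.0523 to 0.139 in the Vehicle libraries, with Vehicle replicate B highest. The members run from 40.4% GC (Homer1) to 65.5% (Dlgap3), so values with an offset for GC content and transcript length, and values without Vehicle replicate B, stand beside the results below.

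All 10 members passed the filter on low counts and were tested with edgeR's quasi-likelihood test. None passed a Benjamini-Hochberg adjusted p of 0.05, against 1 of all 14654 genes tested (0.00682%). On the log2 scale, 6 members were lower after AM6545 and 4 were higher, with a median of -0.21 over the members and 0.01 over all genes tested. Without Vehicle replicate B the median over the members was -0.09, and with that library left out and offsets for GC content and length it was -0.03, with 5 members lower and 5 higher. At an unadjusted p under 0.05, 5 members were lower (Shank1, Shank2, Shank3, Dlgap3 and Homer2), where 8.7% of all genes were lower, and 0 were higher, where 5.86% of all genes were. In 4 of the members (Shank1, Shank3, Dlgap3 and Homer2) every AM6545 library lay below every Vehicle library, a pattern seen in 7.19% of all genes. In 1 member, Dlgap1, every AM6545 library lay above every Vehicle library, as in 6.62% of all genes.

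**Figure D1:**
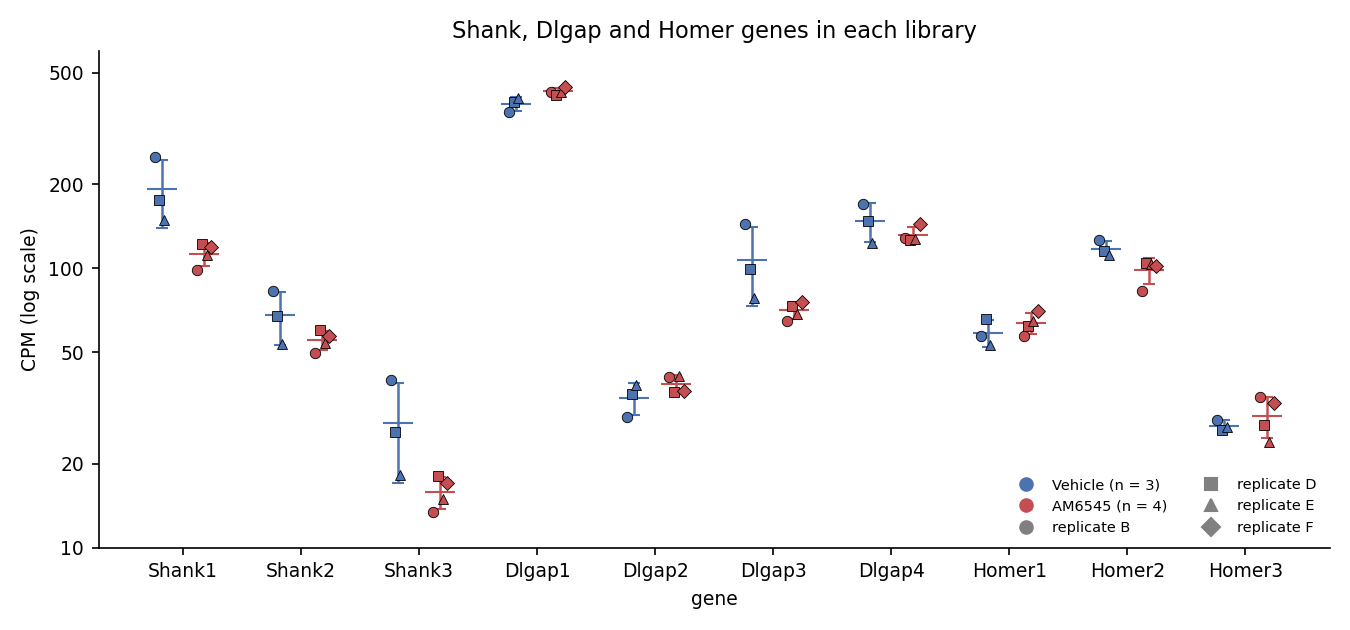
CPM of each of the 10 genes in each library on a log axis, with Vehicle libraries in blue, AM6545 libraries in red, 1 marker shape per replicate letter, and the group mean ± SD as horizontal line and bars. The red points lie below all blue points for Shank1, Shank3, Dlgap3 and Homer2 and above them for Dlgap1, and Vehicle replicate B (blue circle) is the highest point for Shank1, Shank2, Shank3, Dlgap3, Dlgap4 and Homer2.

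Among the Shank genes, whose large proteins form the deep layer of the postsynaptic density, Shank1 and Shank3 were lower in every AM6545 library. Shank1 (chr7:44310253-44360572, + strand, GRCm38) was at 98.4, 122, 112 and 119 CPM in AM6545 replicates B, D, E and F, and at 251, 176 and 149 CPM in Vehicle replicates B, D and E. The groups did not overlap, and the Vehicle libraries were spread more widely, with a mean of 192 ± 52.8 CPM (SD, n = 3) against 113 ± 10.6 (SD, n = 4). The log2 fold change of Shank1 was -0.77 (SE 0.16, unadjusted p 0.000366, edgeR adjusted p 0.199). Without Vehicle replicate B it was -0.52, and with offsets for GC content and length -0.39 (edgeR adjusted p 0.729). Nearly all Shank1 counts belonged to 1 transcript, Shank1-203 with 2167 codons, at 99.2% ± 0.277 (SD, n = 4) of the gene after AM6545 and 99.3% ± 0.104 (SD, n = 3) after vehicle.

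Shank3 (chr15:89499623-89560261, + strand), the family member best known from human neurodevelopmental disorders, had the lowest mean CPM of the members after AM6545, at 15.9. After vehicle its mean was 28.0 CPM, close to the 27.4 CPM of Homer3. Shank3 was at 13.4, 18.0, 15.0 and 17.1 CPM in AM6545 replicates B, D, E and F and at 39.8, 25.9 and 18.3 CPM in Vehicle replicates B, D and E. The highest AM6545 value, 18.0 CPM, was close to the lowest Vehicle value, 18.3 CPM. The log2 fold change was -0.82 (SE 0.22, unadjusted p 0.00341, edgeR adjusted p 0.205). Without Vehicle replicate B it was -0.48, and with offsets for GC content and length -0.50 (edgeR adjusted p 0.729).

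The Shank3 difference lay mostly in 1 transcript entry that is not in GENCODE M21. Transcripts matched to M21 held between 17.2% and 41.9% of the Shank3 gene count, and this 1 unmatched entry equalled the remainder in all 7 libraries within 0.01 counts, which is why it was assigned to Shank3. Its normalised counts were 184, 262, 233 and 262 in AM6545 replicates B, D, E and F and 777, 442 and 309 in Vehicle replicates B, D and E, with no overlap. Its log2 fold change was -1.11 (SE 0.31, unadjusted p 0.00906, edgeR adjusted p 0.559), -0.67 without Vehicle replicate B and -1.38 without Vehicle replicate E. The coding transcript Shank3-203, of 1805 codons, was at 124, 125, 112 and 109 normalised counts in the AM6545 libraries and 157, 156 and 107 in the Vehicle libraries, where the groups overlapped, with a log2 fold change of -0.25 (SE 0.19, edgeR adjusted p 0.761). The unmatched entry thus took 62.6% ± 3.54 (SD, n = 4) of Shank3 after AM6545 and 75.9% ± 5.96 (SD, n = 3) after vehicle. When the gene was rebuilt from M21 transcripts alone, which leaves that entry out, its log2 fold change was -0.11 (edgeR adjusted p 0.781). Estimated counts of overlapping transcripts come from sharing reads between them, so a split between transcripts is less certain than the gene's sum.

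Shank2 (chr7:144001928-144424494, + strand) was at 49.9, 60.4, 54.0 and 57.3 CPM in the AM6545 libraries and at 82.9, 67.4 and 53.7 CPM in the Vehicle libraries. The groups overlapped, since Vehicle replicate E was below 3 of the 4 AM6545 libraries. The log2 fold change was -0.30 (SE 0.14, unadjusted p 0.0494, edgeR adjusted p 0.342), -0.13 without Vehicle replicate B and -0.09 with offsets for GC content and length. Of its transcripts, Shank2-202 with 1472 codons held 58.6% ± 1.88 (SD, n = 4) and 56.7% ± 9.89 (SD, n = 3) of the gene. Shank2-205, the shorter form of 1262 codons, held 25.6% ± 1.75 and 31.7% ± 6.89, and differed by -0.65 on the log2 scale (SE 0.28, unadjusted p 0.0528, edgeR adjusted p 0.6).

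The 3 members with the lowest fold changes, Shank3, Shank1 and Dlgap3, are also those whose M21 transcripts are richest in G and C. For Shank3, the GC content and the offset leave out the unmatched entry, which held most of its counts. For each of Shank3-203, Shank1-203 and Dlgap3-201, and for Homer1-203 at the other end of the range, the 90 coding bases with the highest GC content are shown, with G and C in capitals. The Shank3 window is 91.1% GC (chr15:89521373-89524114, + strand, across a splice junction) and the Shank1 window 78.9% (chr7:44326270-44327105, + strand, also across a junction). The Dlgap3 window is 80.0% GC (chr4:127214801-127214890, + strand) and the Homer1 window 61.1% (chr13:93387591-93387680, + strand).
Shank3-203: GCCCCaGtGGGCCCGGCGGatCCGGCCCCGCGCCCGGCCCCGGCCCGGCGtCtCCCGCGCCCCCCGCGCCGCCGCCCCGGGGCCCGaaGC
Shank1-203: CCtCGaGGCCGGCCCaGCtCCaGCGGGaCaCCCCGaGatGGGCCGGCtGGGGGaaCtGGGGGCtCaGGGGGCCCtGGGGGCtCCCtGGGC
Dlgap3-201: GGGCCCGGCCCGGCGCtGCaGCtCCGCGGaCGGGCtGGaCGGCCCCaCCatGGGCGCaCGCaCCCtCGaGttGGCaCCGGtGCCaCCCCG
Homer1-203: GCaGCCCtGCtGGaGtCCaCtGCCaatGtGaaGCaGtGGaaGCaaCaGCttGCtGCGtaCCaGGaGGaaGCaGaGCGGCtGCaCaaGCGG
GC content over the whole coding sequence was 64.6% for Shank3-203, 63.6% for Shank1-203, 64.8% for Dlgap3-201 and 47.0% for Homer1-203.

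Among all genes tested, the median log2 fold change went from 0.16 in the lowest decile of GC content (31.9% to 42.0%), which holds Homer1, to -0.17 in the highest (58.4% to 72.8%), which holds Shank1, Shank3, Dlgap3 and Homer3. Shank1, Shank3 and Dlgap3 were below that median, and Homer3, at 0.12, was above it. Over the 10 members, GC content and log2 fold change had a Pearson r of -0.67 and a Spearman rho of -0.60 (n = 10 genes, which share all 7 libraries and are not replicates). With offsets for GC content and length, the median over the members was -0.13 and the largest decreases were smaller, while Homer2 moved to -0.33 and Homer3 to 0.24.

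**Figure D2:**
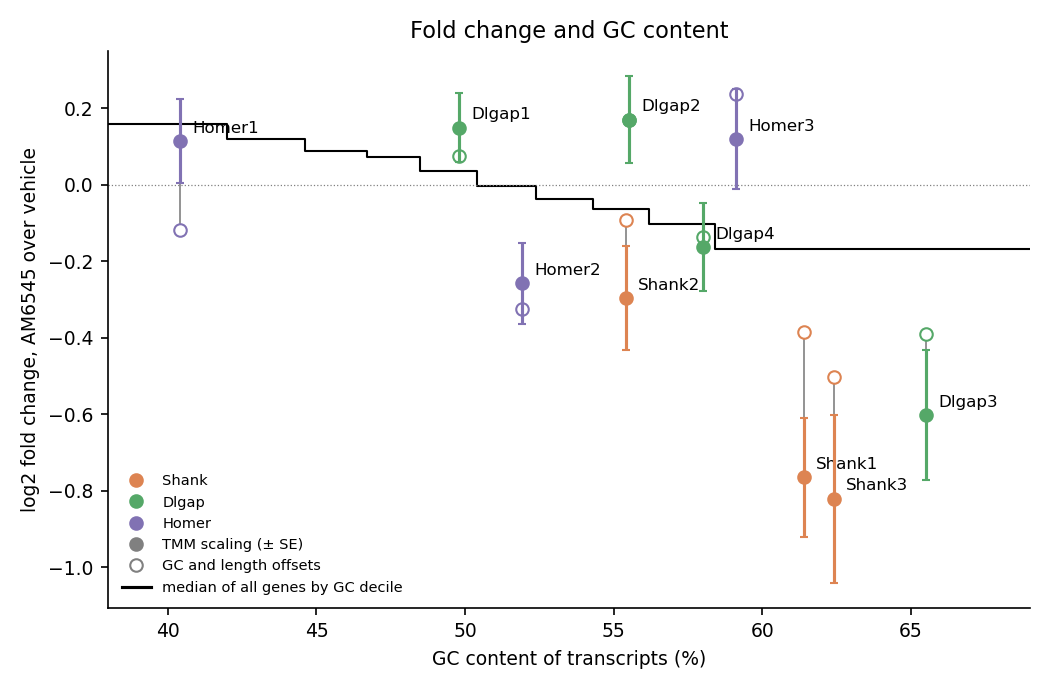
Log2 fold change (AM6545 over vehicle) of the 10 genes against the GC content of their transcripts, with filled points ± SE from TMM scaling, open points from the fit with offsets for GC content and length, and a black line for the median of all genes tested in each GC decile. Shank1, Shank3 and Dlgap3 lie lowest at 61.4% to 65.5% GC, and their open points lie nearer 0. The GC content of Shank3 leaves out its unmatched transcript entry.

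The Dlgap genes, which encode the link between PSD-95 and Shank, did not move as a group. Their summed level was 670.1 ± 21.3 CPM (SD, n = 4) after AM6545 and 676 ± 30.4 (SD, n = 3) after vehicle, while Dlgap3 was lower and Dlgap1 higher in every AM6545 library. Their shared place in the scaffold can be seen in the sequence, since the last 4 codons before the stop codon, in capitals below, encode the C-terminal end that the Shank PDZ domain binds.
Dlgap1-211: atccccgaggcgCAGACCCGGCTC
Dlgap2-203: atccctgaggccCAGACGCGGCTC
Dlgap3-201: atccccgaggccCAGACCAGGCTG
Dlgap4-205: gtccccgaggccCAGACCAGGCTC
These stretches of 24 bases, from GENCODE M21, lie on the + strand of GRCm38 at chr17:70818208-70818231, chr8:14846682-14846705, chr4:127236342-127236365 and chr2:156762877-156762900.

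Dlgap3 (chr4:127169204-127237022, + strand), whose loss in mice is known to give compulsive grooming, was at 64.7, 73.4, 68.8 and 75.9 CPM in AM6545 replicates B, D, E and F. In Vehicle replicates B, D and E it was at 144, 99.2 and 78.1 CPM. The groups did not overlap, and Vehicle replicate E lay just above the AM6545 range. The log2 fold change was -0.60 (SE 0.17, unadjusted p 0.00441, edgeR adjusted p 0.212), -0.33 without Vehicle replicate B and -0.39 with offsets for GC content and length. Dlgap3-201, of 977 codons, held 94.7% ± 0.636 (SD, n = 4) and 96.5% ± 0.23 (SD, n = 3) of its counts.

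Dlgap1 (chr17:69969073-70821413, + strand), the most abundant member, showed the opposite order. It was at 426, 418, 428 and 445 CPM in the AM6545 libraries and 363, 392 and 406 CPM in the Vehicle libraries. The groups did not overlap, but the difference was small, with a log2 fold change of 0.15 (SE 0.09, edgeR adjusted p 0.454), 0.11 without Vehicle replicate B and 0.08 with offsets for GC content and length. The shorter coding form Dlgap1-211, of 682 codons, held 46.4% ± 2.78 (SD, n = 4) of the gene after AM6545 and 57.2% ± 10.4 (SD, n = 3) after vehicle, and Dlgap1-214, of 992 codons, held 17.0% ± 1.04 and 13% ± 5.55. A transcript annotated as retaining an intron, Dlgap1-220, was at 1122, 1253, 1253 and 1407 normalised counts in the AM6545 libraries and 943, 998 and 1027 in the Vehicle libraries. Its groups did not overlap, and its log2 fold change was 0.35 (SE 0.10, unadjusted p 0.00776, edgeR adjusted p 0.559).

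Dlgap2 (chr8:14095865-14847680, + strand) was at 40.7, 36.1, 41.3 and 36.3 CPM after AM6545 and 29.4, 35.4 and 38.2 CPM after vehicle, with overlapping groups and a log2 fold change of 0.17 (SE 0.11, edgeR adjusted p 0.492). It was 0.07 without Vehicle replicate B and 0.17 with the offsets. Its main coding transcript Dlgap2-203 was at 560, 492, 593 and 544 normalised counts after AM6545 and 448, 402 and 457 after vehicle, with no overlap (log2 fold change 0.33, SE 0.10, edgeR adjusted p 0.559). Dlgap2-201, which has the same number of codons, was at 0 in Vehicle replicate B and at 188 and 354 in Vehicle replicates D and E.

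Dlgap4 (chr2:156613705-156764363, + strand) overlapped between groups as a gene, at 128, 127, 128 and 144 CPM after AM6545 and 171, 148 and 124 CPM after vehicle, with a log2 fold change of -0.16 (SE 0.12, edgeR adjusted p 0.516). It was -0.04 without Vehicle replicate B and -0.14 with the offsets. The fold changes of 2 of its transcripts had opposite signs, and neither passed the adjusted threshold. Dlgap4-202 was at 881, 789, 884 and 764 normalised counts after AM6545 and 286, 670 and 636 after vehicle, with no overlap (log2 fold change 0.65, SE 0.28, unadjusted p 0.0572, edgeR adjusted p 0.61). Dlgap4-205, which has the same 989 codons in a longer transcript, was at 402, 349, 368 and 568 after AM6545 and 1194, 766 and 430 after vehicle, where AM6545 replicate F lay above Vehicle replicate E and the groups overlapped (log2 fold change -0.92, SE 0.35, unadjusted p 0.0326, edgeR adjusted p 0.569). Vehicle replicate B was the extreme library for both. Without it, the log2 fold change of Dlgap4-202 was 0.35.

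Homer2 was the 1 Homer gene whose groups did not overlap. It lies at chr7:81600481-81707527 on the - strand and encodes a long, coiled-coil Homer. Its levels were 83.2, 104, 104 and 102 CPM in AM6545 replicates B, D, E and F, all below the 126, 116 and 112 CPM of Vehicle replicates B, D and E. The mean was 98.4 ± 10.2 CPM (SD, n = 4) against 118 ± 7.4 (SD, n = 3), and the log2 fold change was -0.26 (SE 0.11, unadjusted p 0.0305, edgeR adjusted p 0.305). In contrast with the Shank genes and Dlgap3, offsets for GC content and length made the difference larger, -0.33 (unadjusted p 0.0142, edgeR adjusted p 0.729), and without Vehicle replicate B it was -0.20. Of its transcripts, Homer2-206 with 354 codons did not overlap between groups, at 593, 691, 711 and 621 normalised counts after AM6545 and 812, 842 and 735 after vehicle (log2 fold change -0.29, SE 0.10, edgeR adjusted p 0.559). Homer2-202 with 290 codons differed by -0.52 on the log2 scale (SE 0.19, unadjusted p 0.0289, edgeR adjusted p 0.562). The most abundant form, Homer2-201 with 343 codons, was nearer 0 at -0.08 (SE 0.11, edgeR adjusted p 0.872).

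**Figure D3:**
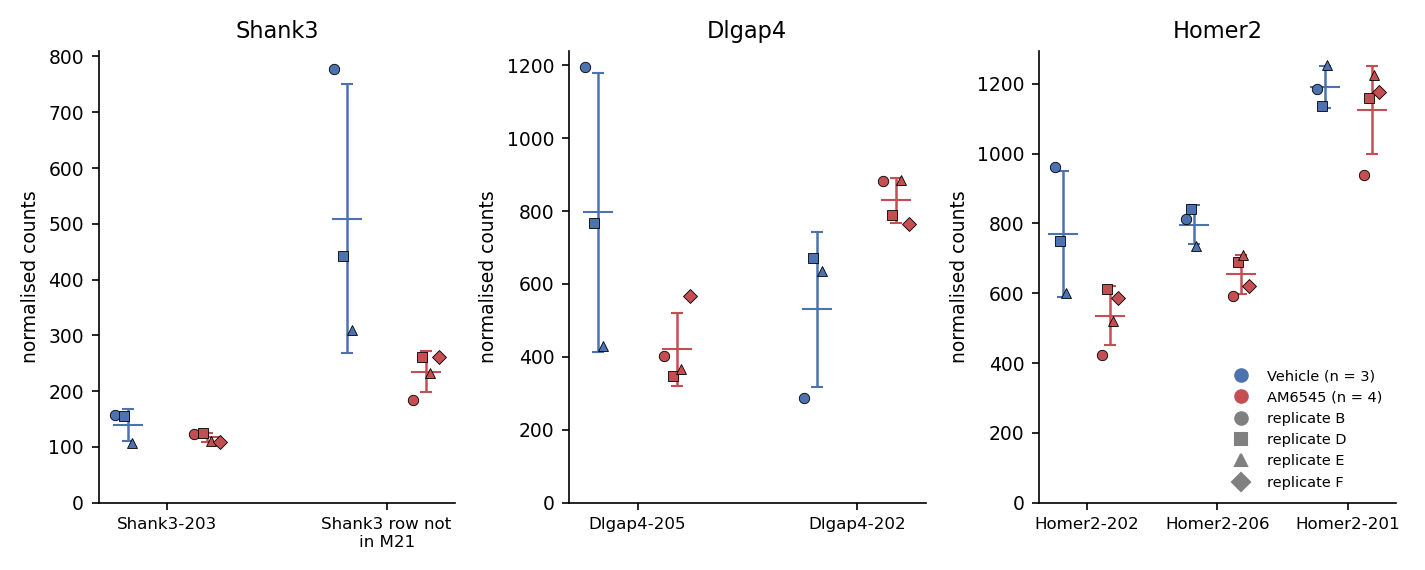
Normalised counts of selected transcripts of Shank3, Dlgap4 and Homer2 in each library, with Vehicle in blue, AM6545 in red, marker shapes for replicate letters, and the group mean ± SD. In Shank3 the groups part in the entry that is not in GENCODE M21 and overlap in Shank3-203, and in Dlgap4 the 2 transcripts with the same 989 codons have fold changes of opposite sign (0.65 and -0.92, neither past the adjusted threshold), with Vehicle replicate B (blue circle) at the extreme of both.

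Homer1 (chr13:93299635-93405129, + strand), which yields both long and short proteins, was at 57.1, 62.3, 64.7 and 70.5 CPM after AM6545 and 57.4, 65.8 and 53.2 CPM after vehicle. The groups overlapped, with a log2 fold change of 0.11 (SE 0.11, edgeR adjusted p 0.638) that turned to -0.12 with offsets for GC content and length (edgeR adjusted p 0.816). It was 0.10, 0.20 and 0.05 without Vehicle replicates B, D and E. The long form Homer1-203 was at 511, 574, 620 and 549 normalised counts in AM6545 replicates B, D, E and F and 338, 552 and 425 in Vehicle replicates B, D and E. The other long form, Homer1-202, was at 531, 632, 627 and 748 after AM6545 and 798, 655 and 511 after vehicle. These 2 long forms had log2 fold changes of 0.36 (SE 0.17, edgeR adjusted p 0.633) and -0.05 (SE 0.18, edgeR adjusted p 0.962), and both overlapped between groups. That of Homer1-203 was 0.21 without Vehicle replicate B and 0.57 without Vehicle replicate D (edgeR adjusted p 0.982 and 0.568).

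The short form Homer1-204, whose own 31 coding bases are printed above, was at 154, 121, 117 and 220 normalised counts after AM6545 and 149, 193 and 115 after vehicle. Its log2 fold change was 0.005 (SE 0.29, edgeR adjusted p 0.998). Homer1-207, a short form with 193 codons, was at 126, 119, 149 and 105 after AM6545 and at 22.7, 109 and 157 after vehicle, with Vehicle replicate B far below the rest (log2 fold change 0.37, SE 0.56, edgeR adjusted p 0.895). Homer1-206, a rare short form with 233 codons, took 1.35% ± 0.361 (SD, n = 4) of the gene after AM6545 and 2.7% ± 0.536 (SD, n = 3) after vehicle, and these shares did not overlap. The normalised counts of Homer1-206 were low and did overlap, at 12.1 to 28.6 after AM6545 and 27.1 to 44.1 after vehicle (log2 fold change -0.86, SE 0.38, edgeR adjusted p 0.612). Of the other annotated coding forms, Homer1-201, Homer1-209, Homer1-210 and Homer1-211 had 0 counts in every library, and Homer1-205 and Homer1-208 stayed under 9 normalised counts in each.

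Short forms together, 8 annotated transcripts of under 250 codons that share the start codon of the long forms, made up 22.5%, 17.9%, 18.7% and 21.5% of short plus long Homer1 counts in AM6545 replicates B, D, E and F. In Vehicle replicates B, D and E they made up 15.95%, 22.5% and 24.2%. The means were 20.2% ± 2.18 (SD, n = 4) and 20.9% ± 4.36 (SD, n = 3), a difference of -0.74 points (two-sided exact permutation test, p 0.8). With 4 against 3 libraries, this test cannot give a p under 0.05. With all 7 libraries, the difference was smaller than the spread between libraries of either group. It was -3.21, 0.08 and 0.92 points without Vehicle replicates B, D and E. Without Vehicle replicate B, the remaining Vehicle shares, 22.52% and 24.2%, lay above every AM6545 share, the highest of which was 22.48%. Of 12 other activity-induced genes tested (Arc, Fos, Fosb, Junb, Egr1, Egr3, Nr4a1, Npas4, Dusp1, Ier2, Nptx2 and Bdnf), 0 passed an adjusted and 0 an unadjusted p of 0.05 in edgeR's test, with a median log2 fold change of -0.04. That median was -0.23 with limma-voom, -0.18 without AM6545 replicate B and 0.08 without AM6545 replicate D. Arc, which encodes an activity-regulated cytoskeletal protein, was at 262 ± 66.6 CPM (SD, n = 4) and 280.1 ± 43.7 (SD, n = 3), and the transcription factor genes Egr1 and Junb had log2 fold changes of 0.01 and 0.05.

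**Figure D4:**
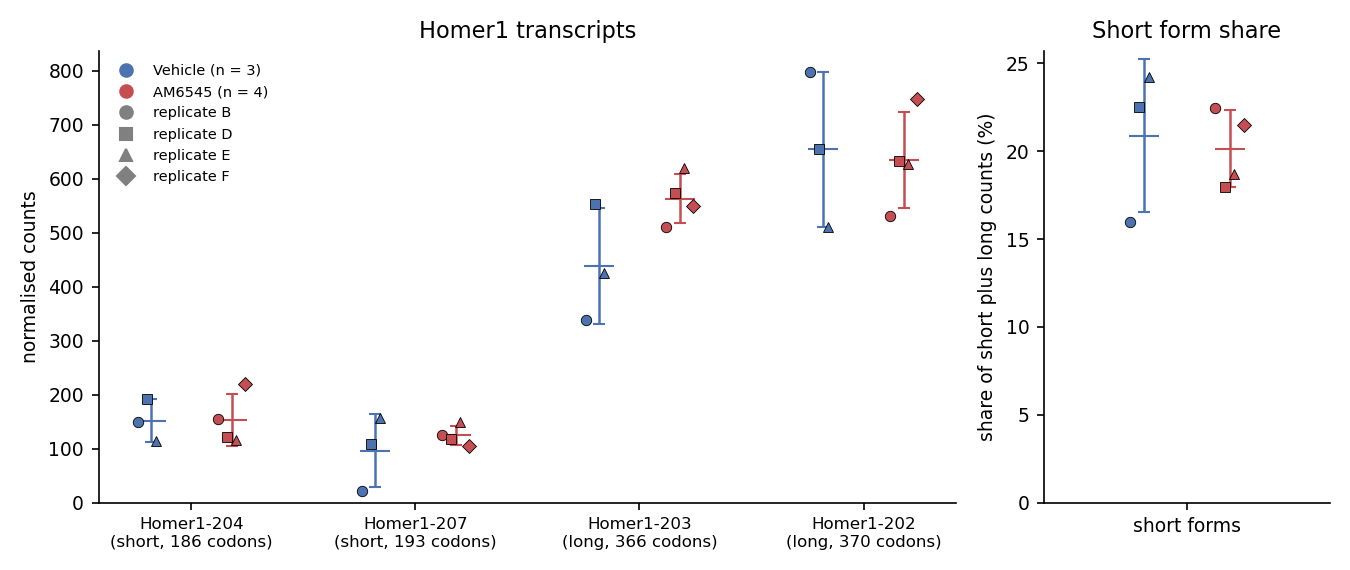
Left, normalised counts of the 4 main Homer1 coding transcripts in each library, and right, the share of short forms in short plus long counts, with Vehicle in blue, AM6545 in red, marker shapes for replicate letters, and the group mean ± SD. The groups overlap for every transcript shown, and the short form share lies between 15.95% and 24.2% in all 7 libraries.

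Homer3 (chr8:70282827-70294361, + strand), a coiled-coil Homer known mainly from cerebellum, was at 34.5, 27.5, 23.9 and 33.0 CPM after AM6545 and 28.7, 26.4 and 27.2 CPM after vehicle. The AM6545 libraries were spread more widely than the Vehicle libraries, on both sides of them, and the log2 fold change was 0.12 (SE 0.13, edgeR adjusted p 0.68). It was 0.16 without Vehicle replicate B, 0.24 with the offsets, 0.04 without AM6545 replicate B, 0.07 without AM6545 replicate F and 0.21 without AM6545 replicate E. Its coding form Homer3-203, with 359 codons, held 73.1% ± 1.08 (SD, n = 4) of the gene after AM6545 and 78.1% ± 2.67 (SD, n = 3) after vehicle. The transcript Homer3-207, annotated as retaining an intron, held 22.1% ± 2.02 and 17.2% ± 1.27, and its normalised counts were 163, 134, 135 and 185 against 122, 112 and 99.5, with no overlap (log2 fold change 0.48, SE 0.18, edgeR adjusted p 0.569). Exons of Ddx49 on the opposite strand cover 25.4% of the exonic bases of Homer3. Since the use of strand in counting is not given in the sources used here, reads of the pair cannot be told apart. Opposite-strand genes cover at most 4.16% of the exonic bases of Shank1, Shank3, Dlgap1, Dlgap4 and Homer2.

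Over all 10 genes, 83 of the 99 transcripts had counts and 49 passed the filter. None of these passed an adjusted p of 0.05 in edgeR's test, against 0.0177% of the 33962 transcripts tested. In 5 of the 49 every AM6545 library was below every Vehicle library, where 5.59% of all transcripts tested had that pattern, and in 6 every AM6545 library was above, where 5.23% did.

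Within the Shank family, the balance of Shank1 and Shank2 differed between groups more than it varied within them. The summed Shank level was 162, 200.4, 181 and 194 CPM in the AM6545 libraries and 373, 269 and 221 CPM in the Vehicle libraries. Shares were taken from levels per length, explained below, and not from this CPM sum. Shank1 made up 55.4% ± 0.504 (SD, n = 4) of the family after AM6545 and 60.8% ± 1.2 (SD, n = 3) after vehicle. Shank2 made up 33.6% ± 0.585 and 26.9% ± 1.66, with no overlap for either gene. Since a ratio within a library does not depend on how libraries are scaled, the log2 ratio of Shank1 to Shank2 is a direct view of this: it was 0.98 to 1.06 in the AM6545 libraries and 1.38 to 1.60 in the Vehicle libraries. The GC content of Shank1 is 61.4% and that of Shank2 55.4%, and its part in this ratio was not tested. The ratio of Shank1 to Shank3 overlapped between groups, with means of 2.83 ± 0.06 (SD, n = 4) and 2.81 ± 0.19 (SD, n = 3).

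In the Dlgap family the log2 ratio of Dlgap1 to Dlgap3 ran from 2.51 to 2.72 after AM6545 and from 1.33 to 2.38 after vehicle, with no overlap. That of Dlgap3 to Dlgap4 ran from -0.99 to -0.79 and from -0.66 to -0.24. In the Homer family the summed level overlapped, at 192 ± 12.7 CPM (SD, n = 4) and 204 ± 10.5 (SD, n = 3), while the log2 ratio of Homer1 to Homer2 was -0.75 to -0.53 after AM6545 and -1.13 to -0.81 after vehicle. Of the 12 ratios within the families, 5 did not overlap between groups, and how often other gene pairs do so is not given here. These ratios share genes and are given with no test.

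Levels per length compare the genes with each other: counts were divided by the count-weighted length of each gene's annotated transcripts and scaled to the same total in each library. On this scale Dlgap1 was highest, at 182 ± 21.3 (SD over 7 libraries), then Dlgap4 at 89.3 ± 8.17. A middle group followed, with Homer2 at 51.5, Dlgap3 at 43.7, Homer1 at 31.9, Shank1 at 29.1 and Homer3 at 27.2, and the ranges of neighbours in it overlapped. Dlgap2 at 18.6 and Shank2 at 15.0 also overlapped, and Shank3 was lowest at 5.91, with a range of 3.89 to 9.97. The steps from Dlgap1 to Dlgap4, from Dlgap4 to Homer2, from Homer3 to Dlgap2 and from Shank2 to Shank3 were between ranges that did not touch. The length used for Shank3 leaves out its unmatched transcript entry.

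The binding partners of the 3 families did not pass the adjusted threshold either. Of 14 Shank ligands and actin regulators tested, 0 passed, with 1 lower and 1 higher at an unadjusted p under 0.05 (8.7% and 5.86% of all genes) and a median log2 fold change of 0.04. The lower one was Adgrl1, the latrophilin 1 receptor, at -0.60 (SE 0.17, unadjusted p 0.00452, edgeR adjusted p 0.212), and the higher one Abi1, an Abl interactor in actin assembly, at 0.31 (SE 0.11, unadjusted p 0.0179, edgeR adjusted p 0.265). The most abundant per length were Baiap2 (IRSp53), at -0.13, Cttn (cortactin), at 0.27, and Abi1.

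Of 15 Dlg MAGUKs and Dlgap partners tested, 0 passed the adjusted threshold, with 5 lower and 1 higher at an unadjusted p under 0.05 (8.7% and 5.86% of all genes) and a median of -0.07. The lower genes included Dlg4 at -0.52, Iqsec2 at -0.43, Lin7b at -0.37 and Begain at -0.29 on the log2 scale, all but Lin7b chosen after their values were seen. Dlg4 encodes PSD-95, to which Dlgap proteins bind, and was at 55.3 ± 9.2 CPM (SD, n = 4) after AM6545 and 79.5 ± 26.1 (SD, n = 3) after vehicle (edgeR adjusted p 0.3). The higher gene was Lin7c, at 0.38 (SE 0.10, unadjusted p 0.00186, edgeR adjusted p 0.199), a close relative of Lin7b that differed in the opposite direction. Lin7b has 59.7% GC and Lin7c 37.6%, and the part of GC content in their opposite directions was not tested. The dynein light chain genes Dynll1 and Dynll2, whose products bind Dlgap1, were at -0.25 and -0.14.

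Of 13 Homer partners at receptors and calcium stores tested, 0 passed the adjusted threshold, with 2 lower and 0 higher at an unadjusted p under 0.05 (8.7% and 5.86% of all genes) and a median of -0.02. The lower genes were the ryanodine receptor gene Ryr2, at -0.31 (SE 0.11, unadjusted p 0.0186), and Agap2, which encodes the GTPase PIKE, at -0.43 (SE 0.19, unadjusted p 0.0427), both chosen after their values were seen. The metabotropic glutamate receptor gene Grm5, whose product Homer binds, was at -0.02 (SE 0.12). The G protein genes Gna11 and Gnaq, among the most abundant per length, were at -0.20 and 0.02.

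Whether members passed the threshold differed with the libraries and the tool. Without Vehicle replicate E, 4 members passed edgeR's adjusted threshold: Shank1 at -0.92 (adjusted p 0.0148), Shank3 at -1.05 (adjusted p 0.0153), Dlgap3 at -0.79 (adjusted p 0.0193) and Shank2 at -0.44 (adjusted p 0.0428). In that comparison of 4 against 2 libraries, 944 of all 14807 genes tested passed (6.38%). With all 7 libraries, DESeq2 passed Shank1 (adjusted p 0.00531), Shank3 (0.0256) and Dlgap3 (0.0459), where it passed 1.62% of the 12665 genes it gave an adjusted p, and limma-voom with quality weights passed the same 3 genes (adjusted p 0.0238, 0.046 and 0.0421), where 2.69% of all genes passed. Without Vehicle replicate B, 0 members passed, and the log2 fold changes of Shank1, Shank3 and Dlgap3 were -0.52, -0.48 and -0.33. With that library left out and offsets for GC content and length together, they were -0.28, -0.27 and -0.15, and Shank2 and Dlgap4 both stood at 0.01.

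**Figure D5:**
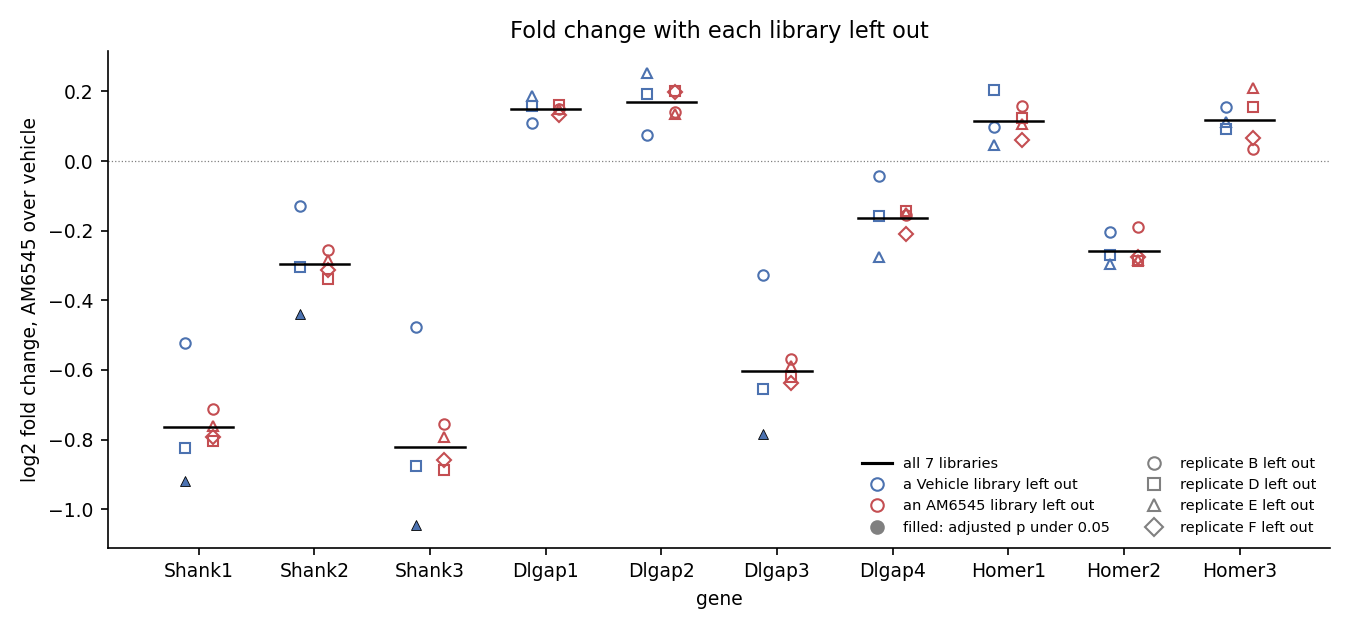
Log2 fold change (AM6545 over vehicle) of each gene with all 7 libraries (black line) and with each library left out in turn, with blue points for a Vehicle library left out, red points for an AM6545 library left out, marker shapes for its replicate letter and filled points for an edgeR adjusted p under 0.05. Leaving out Vehicle replicate B (blue circle) gives the value nearest 0 for the 3 Shank and the 4 Dlgap genes, and leaving out Vehicle replicate E (filled blue triangle) gives the 4 filled points.

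The genes whose log2 CPM over the 7 libraries was most like that of each member were looked up among genes with a mean of at least 10 CPM. For Shank3 they were Adgrl1 (Pearson r 0.998), Usf2 (0.996) and Ddn (0.993), and Ddn encodes dendrin, a postsynaptic protein whose mRNA is dendritic. For Shank1 they were Rps23 (0.995), Ndufa1 (0.994) and Adgrb2 (0.993), and for Shank2 D430019H16Rik (0.996), Prr13 (0.994) and Kcnj11 (0.994). For Dlgap3 they were Usf2 (0.998), Aes (0.997) and Gnptg (0.997), for Dlgap4 Srrm4 (0.993), Rtl8a (0.993) and Bex4 (0.992), for Dlgap1 2610008E11Rik (0.991), Armcx1 (0.987) and Nmd3 (0.985), and for Dlgap2 Mtrr, Tmem200a and Matn2 (all 0.986). For Homer2 they were B4galt2 (0.988), Grin2c (0.985) and Mrps28 (0.981). The highest values were lower for Homer1, with Mllt11 (0.98), Mettl6 (0.971) and Dok4 (0.967), and for Homer3, with Tra2a (0.978), Rbm22 (0.963) and 4930402H24Rik (0.947). Each r rests on 7 points that share 1 set of libraries, and the best of many genes is high by selection.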

How the data were processed

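RNA of hippocampal synaptoneurosomes was sequenced in 7 libraries, made with a SMARTer low-input kit per the labels' protocols. The deposited values are estimated counts per gene and per transcript, as the authors gave them, with 1 column per library. The submitters' processing notes name Salmon 1.5.2 and mm10. The annotation release, use of strand and step from transcripts to genes are not given in the sources used here. Names, coordinates, lengths and GC content were taken from GENCODE M21 (GRCm38), which held 22194 of 22248 genes and 101527 of 102392 transcripts.

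Estimated counts were rounded to whole numbers and tested with edgeR 4.0.16 (R 4.3.3, limma 3.58.1) by a robust quasi-likelihood fit with TMM scaling, filterByExpr and no covariates, fitted and adjusted by Benjamini-Hochberg over all 14654 genes or 33962 transcripts. Standard errors are approximate (log2 fold change divided by the root of edgeR's F). Normalised counts are counts divided by relative effective library size. The Homer1 share was tested by an exact permutation test (scipy 1.17.1). The scripts were tested on simulated data.

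The members and lists were chosen with earlier results of these data known. Named were all members, their transcripts with a mean share of at least 5% (values given for those the results turn on) and all Homer1 coding transcripts, the 3 genes of each list highest per length, and for each member the 3 genes most like it. Some list genes entered the counts but are not reported here by name. Alternatives were DESeq2 1.42.0 and its size factors, total counts, upper-quartile scaling, limma-voom, no filter or one at a mean of 50 counts, a replicate block, lowess offsets (span 0.3) for GC content and length, transcripts summed per gene, other definitions of the Homer1 share, and leaving out each library. Offsets without Vehicle replicate B and Homer1-204 as the only short form were added after seeing the data.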

Additional observations from a re-analysis of the deposited data

Results flagged for a closer look

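Among the 40 values checked in the AM6545 group (10 genes, the named transcripts with a mean share of at least 5%, and the Homer1 short form share), 2 had a library far from the other 3, and chance alone gives about 2 of 40. Dlgap4 was at 144.2 CPM in AM6545 replicate F and at 126.5 to 128.3 CPM in the other 3 AM6545 libraries, inside the Vehicle range of 123.5 to 170.5 CPM. Homer2 was at 83.17 CPM in AM6545 replicate B and at 102 to 104.4 CPM in the other 3, below the Vehicle range of 111.6 to 125.9 CPM. Without AM6545 replicate B the log2 fold change of Homer2 was -0.19.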

How the results depend on the processing

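The direction of 7 of the 10 members held in all 19 alternatives, and the exceptions were Shank2, Dlgap4 and Homer1. With offsets for GC content and length and no Vehicle B library, Shank2 was at 0.011 and Dlgap4 at 0.007. Homer1 was at -0.118 with the offsets, -0.182 with the offsets and the replicate block, and -0.07 with the offsets and no Vehicle B library. Over all genes, 1 passed in edgeR's test (2134 at an unadjusted p under 0.05), 205 with DESeq2, 394 with limma-voom, 2 with a mean of at least 50 counts, and 0 with the offsets (990 unadjusted) or with the offsets and no Vehicle B library (385 unadjusted). Leaving out 1 library gave 0 to 944 genes, with 944 without Vehicle replicate E and 0 without Vehicle replicate B (954 unadjusted) or without AM6545 replicate E (1677 unadjusted). Over all transcripts, 6 passed in edgeR's test, 431 with DESeq2, 10 with a mean of at least 50 counts, and 1 to 14 with 1 library left out.

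The deviations of same-letter libraries from their group means were negatively correlated (r -0.255, -0.13 and -0.18 over genes for B, D and E), so the letters were not taken as pairs. With the replicate block, 1 gene and 0 transcripts passed (1597 transcripts unadjusted), no member changed its call or direction, Homer1-204 was at -0.204 and the Homer1 short form share differed by -1.19 points. Leaving out 1 library moved that share difference between -3.21 and 0.92 points, the log2 fold change of Homer1-207 between -0.094 and 0.902, that of Homer1-204 between -0.224 and 0.21 and that of Homer1-202 between -0.202 and 0.124. The median of the Homer partners was -0.1 and that of the Shank ligands -0.05 without Vehicle replicate B, and that of the Dlg MAGUKs and Dlgap partners was -0.173 without Vehicle replicate E. The cause of these changes was not tested. Precision is limited by 3 and 4 libraries and, for Homer1-204 and Homer1-207, by 22.7 to 220.1 normalised counts per library.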
